A study of Danio rerio with 26 samples.

Results

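The brain response of adult zebrafish (Danio rerio, short fin AB strain) to chronic ethanol was described from 9 of the 26 libraries of the series. The exposed fish had lived for 9 weeks in 0.5% ethanol, in a new tank each day, and gave 2 libraries from females and 2 from males. Control fish were moved to fresh tanks in the same way without ethanol, and gave 3 libraries from females and 2 from males. The sexes were housed apart at 30 fish for each 20 L tank, under 14 h of light and 10 h of dark at 28 °C, and fish of all 4 groups were also bred from the fifth week onward. Ages were not stated in the labels. Each library is a pool of tissue from its group, and replicates are not said to be separate sets of fish, so the p-values reflect how these libraries vary, which may be technical variation. Transcripts at 1 TPM or more (TPM, a transcript's abundance as a share of its library's whole) in at least 2 of the 9 libraries were compared, with sex as a covariate, which kept 35806 of 57918. They held 99.6% to 99.9% of the TPM of each library.

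Ethanol enters the brain freely from the blood. It is known to enhance inhibitory signalling at GABA-A receptors and to block excitatory NMDA-type glutamate receptors, and long exposure is known to bring adaptations of receptors, stress pathways and metabolism. The adult zebrafish brain keeps neurons, radial glia, oligodendrocytes and microglia in 1 tissue, and a bulk library averages over all of them. The tables give Ensembl transcript identifiers only, and the files do not pair them with gene names, so genes of these pathways and cell types are not named here and the tissue could not be checked against its defining markers. The results describe transcripts by their abundance, their direction of change and the sex in which they changed. In bulk tissue a smaller number of cells of a type and less RNA per cell cannot be told apart.

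Libraries of 1 group and sex ranked their transcripts most alike. Spearman's rho across transcripts was 0.922 to 0.933 between alcohol libraries of the same sex and 0.918 to 0.928 between control libraries of the same sex. Between alcohol and control libraries of the same sex it was 0.857 to 0.891, and between those of opposite sexes it was 0.855 to 0.893. Between control females and control males it was 0.860 to 0.886. Both alcohol females ranked closer to control females (rho 0.868 to 0.891) than to control males (0.855 to 0.865). Replicate 2 of the alcohol males ranked its transcripts closer to control females (rho 0.880 to 0.893) than to control males (0.857 to 0.871), whereas replicate 1 lay at 0.863 to 0.882 to control females and 0.866 to 0.878 to control males. Of 169 transcripts at 500 TPM or more in every control liver, 33 that were low in withdrawal brains were followed. That choice favours low values in any brain library, so their low level here is no finding. The 33, with 11.2% of TPM in control livers, had 0.101% to 0.104% of TPM in alcohol females and 0.0497% to 0.0606% in control females. In males they had 0.0529% to 0.0586% in alcohol libraries and 0.00978% to 0.0208% in control libraries. In TPM as deposited the share was higher in alcohol brains of each sex. On that scale most tested transcripts were also higher in alcohol brains, with a median log2 change of 1.11 over all of them. The share was not computed on another scale, and its part in the results was not tested.

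Alcohol brains had a flatter distribution of transcript abundance than control brains. The effective number of transcripts, the exponential of the Shannon entropy of the TPM shares, was 6544 and 5485 in alcohol females and 4408 and 6576 in alcohol males, against 2667, 1960 and 2711 in control females and 1680 and 1290 in control males. Every alcohol library lay above every control library. Averaged over the sexes, the difference was 3787 (exact two-sided permutation test within sex, p = 0.0167; 60 arrangements allow no smaller p, and Benjamini-Hochberg adjustment over 6 library measures gave 0.025). The number of transcripts at 1 TPM or more was 32815 ± 445 (SD, n = 4) in alcohol brains and 25333 ± 2094 (SD, n = 5) in control brains, with the same exact p of 0.0167 (adjusted 0.025). With 1 library left out at a time both differences kept their direction, at adjusted exact permutation p of 0.04 to 0.0833. The number listed at 0 TPM did not pass the test, at 18393 ± 226 (SD, n = 4) in alcohol brains and 18489 ± 574 (SD, n = 5) in control brains (exact permutation p = 0.733). Each library sums to the same TPM total, so the number of reads behind it is unknown.

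The difference in TPM between alcohol and control brains changed direction along the ranking. The top 100 transcripts accounted for 28.5% ± 3.05 (SD, n = 4) of the TPM total in alcohol brains and for 38.8% ± 4.81 (SD, n = 5) in control brains (exact permutation p = 0.0167, adjusted 0.025, and 0.04 to 0.1 with 1 library left out). The top 10 accounted for 16.8% ± 2.32 (SD, n = 4) and 21.9% ± 3.75 (SD, n = 5), a difference that did not pass the adjusted threshold (exact permutation p = 0.05, adjusted 0.06). For the top 1000 the shares were 43.5% ± 3.56 (SD, n = 4) in alcohol and 65.7% ± 4.19 (SD, n = 5) in control brains (exact permutation p = 0.0167, adjusted 0.025). Whether the drop differed between these depths was not tested. At every rank from 40 to 1975 all 4 alcohol libraries had a lower TPM than all 5 control libraries. At every rank from 3429 to 39064 all 4 alcohol libraries had a higher TPM. The transcript at rank 1000 stood at 68.4 to 72.7 TPM in alcohol brains and at 108.6 to 129 TPM in control brains. At rank 10000 the values were 24.8 to 27.4 TPM in alcohol brains and 7.83 to 11.65 TPM in control brains.

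**Figure D1:**
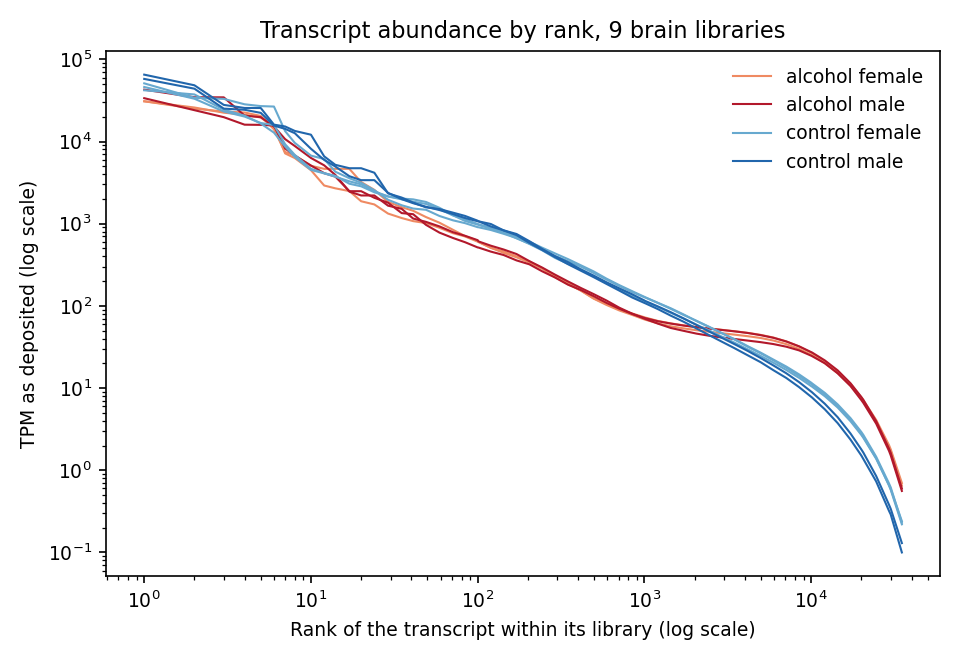
TPM as deposited against the rank of the transcript within its library, both on log scales, with 1 line for each of the 4 alcohol and 5 control brain libraries. The alcohol lines run below the control lines from rank 40 to 1975 and above them from rank 3429 to 39064.

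The surplus of the alcohol brains lay mainly in a narrow band of abundance. Between 20 and 60 TPM, a band chosen after the curves were seen, there were 10998 ± 176 transcripts in alcohol libraries (SD, n = 4) and 3871 ± 414 in control libraries (SD, n = 5). The alcohol libraries ranged from 10853 to 11228 and the control libraries from 3270 to 4295. Above this band the order turned. Between 100 and 300 TPM there were 378 to 436 transcripts in alcohol libraries and 710 to 905 in control libraries, and above 1000 TPM there were 46 to 61 in alcohol libraries and 87 to 118 in control libraries. Below 1 TPM but above 0 there were 6234 to 7390 in alcohol libraries and 12211 to 16283 in control libraries.

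Few transcripts carried the loss of TPM and many carried the gain. Between the group means, 9367 transcripts were lower in alcohol brains and together lost 28.0 percentage points of TPM, and 40096 were higher and gained as much. The fixed TPM total makes the 2 sums equal, so TPM shares cannot show which side moved. The 1000 largest losses made up 81.8% of the loss, and the 1000 largest gains 12.1% of the gain. The most abundant transcript had a mean of 34543 TPM in alcohol brains, with a range of 30834 to 42783 TPM, and a mean of 52392 TPM in control brains, with a range of 42019 to 65110 TPM. Those ranges overlapped, and in TPM as deposited its log2 change of −0.63 (SE 0.28) missed the threshold (limma adjusted p = 0.0633), while after rescaling, explained next, it was −2.12 (limma adjusted p = 0.0235). Most of the abundant transcripts were the same in both groups. The 1000 highest group means shared 85.5% of their members between alcohol and control. Single libraries of the same sex shared 77.9% to 84.5% of their 1000 most abundant transcripts between alcohol and control (median 79.75%). Those of opposite sexes shared 77.8% to 87.9% between alcohol and control (median 82.65%), so no less than those of the same sex. Control females and control males shared 79.3% to 85.1%. Replicates of the same sex shared more, at 88.8% to 93.7% within alcohol and 91.4% to 94.6% within control.

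The same pattern appeared in every alcohol library when transcripts were grouped by their mean TPM over the 9 libraries. Here TPM was first divided by a median-of-ratios factor for each library, which holds the typical transcript fixed. The factor was 1.75 to 1.87 in alcohol libraries and 0.511 to 0.773 in control libraries. Each alcohol library was set against the mean of the controls of its own sex. For transcripts of 300 to 1000 TPM the median log2(TPM + 1) difference was −2.15 and −2.02 in alcohol females and −2.48 and −2.73 in alcohol males. For those above 1000 TPM it was −1.90 and −1.60 in females and −2.34 and −2.41 in males. In both classes the males lay lower than the females on this scale. In TPM as deposited the 300 to 1000 TPM class stood at −0.81 and −0.77 in females and −0.81 and −1.01 in males. For transcripts of 1 to 5 TPM the medians were 0.24 and 0.26 in females and 0.33 and 0.32 in males after rescaling, and 1.13 and 1.08 in females and 1.30 and 1.32 in males as deposited.

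**Figure D2:**
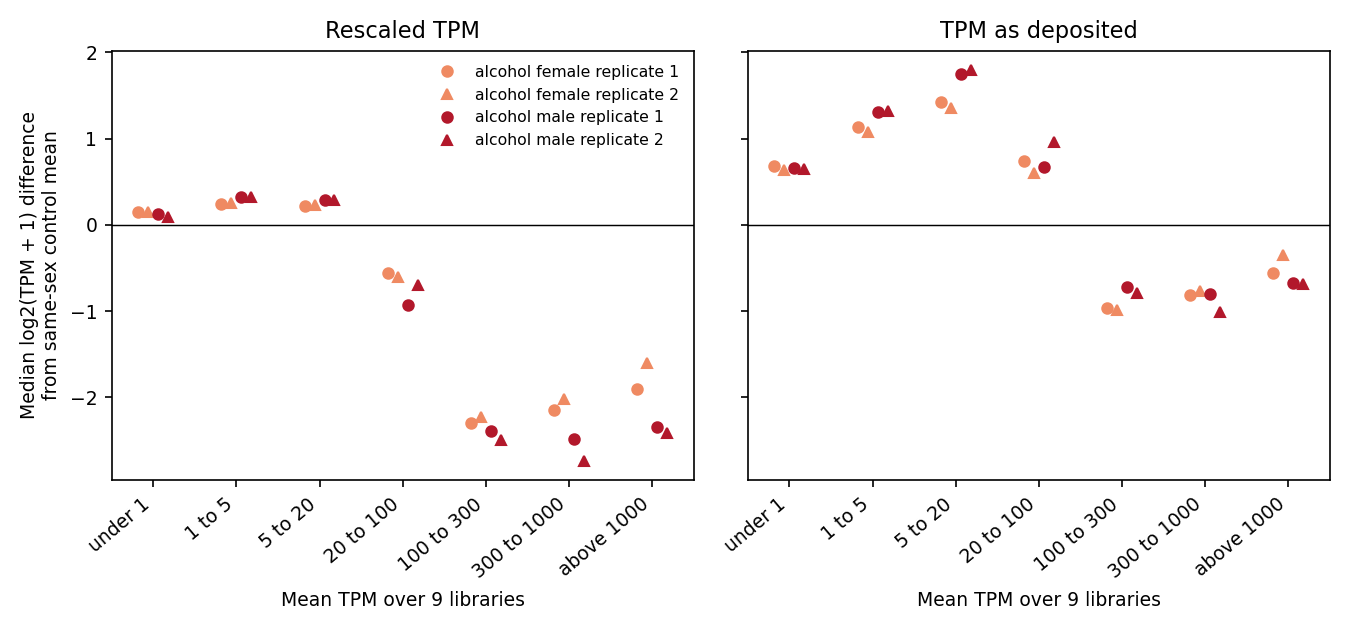
Median log2(TPM + 1) difference of each alcohol library from the mean of the control libraries of its sex, by class of mean TPM over the 9 libraries, after rescaling (left) and in TPM as deposited (right). Classes above 100 TPM lie below 0 in all 4 alcohol libraries on both scales, classes under 20 TPM lie above 0, and the class of 20 to 100 TPM lies below 0 after rescaling and above 0 as deposited.

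Because TPM is relative, the number of transcripts called depended on the scale. After rescaling, limma called 6187 transcripts higher in alcohol than in control brains and 7845 lower (adjusted p below 0.05), which are 17.3% and 21.9% of the 35806 tested. By at least 2-fold, 1651 rose (4.61%) and 5310 fell (14.8%). In TPM as deposited the calls were 24882 higher (69.5%) and 2630 lower (7.35%), and after quantile normalisation, which gives every library the same distribution, 5768 higher (16.1%) and 4334 lower (12.1%). The median log2 change of all tested transcripts was 0.13 after rescaling, 1.11 as deposited and 0.10 after quantile normalisation. Without replicate 1 of the alcohol males the rescaled fit called 3996 higher and 7138 lower.

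A smaller group of transcripts was called in the same direction under all 3 scalings, 3538 of them higher in alcohol brains (9.88% of those tested) and 1531 lower (4.28%). The 3538 higher transcripts had a median log2 change of 0.90 after rescaling and 2.09 as deposited. Together they held 7.16% ± 0.313 of TPM in alcohol brains (SD, n = 4) and 1.48% ± 0.471 in control brains (SD, n = 5), and the median member stood at 19.3 TPM in alcohol brains and 3.59 TPM in control brains. The 1531 lower transcripts had a median log2 change of −2.40 after rescaling and −1.10 as deposited, and together held 4.66% ± 0.491 of TPM in alcohol brains (SD, n = 4) and 10.3% ± 0.592 in control brains (SD, n = 5). Their median member stood at 21.7 TPM in alcohol brains and 46.0 TPM in control brains. These values describe transcripts chosen by the same test and are no further support for it. By at least 2-fold on every scale, 878 rose and 701 fell. Without replicate 1 of the alcohol males 2211 were higher under all 3 scalings, of which 2127 were among the 3538.

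The 2 directions differed in their shares of the classes of abundance, but shared classes. Of the transcripts averaging 1 to 5 TPM, 771 of 11215 rose under all 3 scalings (6.87%) and 194 fell (1.73%). Of the transcripts averaging 5 to 20 TPM, 2291 of 11299 rose under all 3 scalings (20.3%) and 360 fell (3.19%). At 20 to 100 TPM the class was split, with 430 of 7894 rising (5.45%) and 814 falling (10.3%). Among the 955 transcripts of 100 TPM or more, limma called 924 lower after rescaling (96.8%) and 772 lower as deposited (80.8%), and 130 were lower under all 3 scalings. In that class 0 were called higher after rescaling, also at an unadjusted p below 0.05, 3 were called higher as deposited and 72 after quantile normalisation. Rescaling itself lowers alcohol levels against control levels, which favours falls and leaves little room for rises here. After quantile normalisation 131 were called lower. The median log2 changes on that scale were −0.0362 at 100 to 300 TPM, −0.00772 at 300 to 1000 TPM and 0.0240 above 1000 TPM. The 955 transcripts held 42.8% ± 3.59 of TPM in alcohol brains (SD, n = 4) and 64.6% ± 4.07 in control brains (SD, n = 5).

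**Figure D3:**
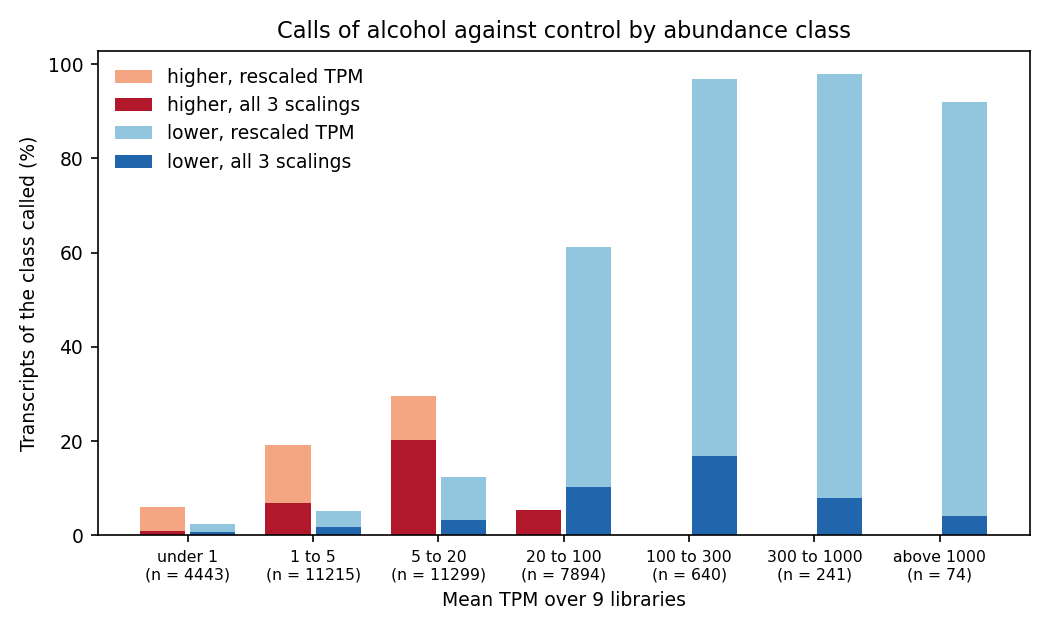
Share of the tested transcripts of each class of mean TPM that limma called higher (reds) or lower (blues) in alcohol than in control brains, after rescaling (pale) and under all 3 scalings (dark, drawn over the pale bars from 0). Calls under all 3 scalings peak at 20.3% higher in the class of 5 to 20 TPM and at 16.9% lower in the class of 100 to 300 TPM.

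In TPM as deposited, crossings of the 1 TPM line were mostly upward. Of the 35806 tested, 1855 stood at 1 TPM or more in all 4 alcohol libraries and under 1 TPM in all 5 control libraries. The opposite pattern was shown by 61. With a listed 0 in place of under 1 TPM, 44 stood at 1 TPM or more in all 4 alcohol libraries against 0 in all 5 control libraries, and 38 showed the opposite. The 44 had a median level of 6.78 TPM in alcohol brains, and the 38 had a median level of 12.4 TPM in control brains. All 44, all 38 and all 61 were called under the 3 scalings, but only 319 of the 1855 were. These sets were chosen for separation in the same libraries, which favours such calls, so the calls are no further support. The 4 alcohol libraries lay above all 5 control libraries for 4702 transcripts after rescaling (13.1% of those tested) and below them for 6788 (19%). In TPM as deposited these were 20931 (58.5%) and 1812 (5.06%). The upward excess of the crossings thus goes with that of all tested transcripts on that scale, and is not particular to them.

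A set of 4 transcripts was chosen by rule to show the largest changes. They were the 2 that rose and the 2 that fell most after rescaling, among 19471 transcripts at 1 TPM or more in all 9 libraries, with the call made under all 3 scalings and with alcohol and control libraries that did not overlap. Over all transcripts that met these conditions the median absolute log2 change after rescaling was 0.78 for rises and 2.32 for falls. Rescaling lowers alcohol levels against control levels, which makes falls larger and rises smaller than as deposited. As deposited, the median log2 changes of all transcripts called under the 3 scalings were 2.09 for rises and −1.10 for falls. The 4 are thus extremes of a selection, and their estimates may be too large. All levels in the following sentences are TPM as deposited, unless stated. Libraries of fish withdrawn from ethanol, which were not part of the comparison, are given on that scale only. They had 1509 to 2767 effective transcripts, against 4408 to 6576 in alcohol libraries. Their deposited levels may therefore not be on 1 scale with those of the alcohol libraries.

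ENSDART00000152983.1 stood at 68.2 and 76.6 TPM in alcohol females and 33.7 and 52.7 TPM in alcohol males, against 1.87, 2.07 and 2.59 TPM in control females and 2.80 and 3.80 TPM in control males. Its log2 change was 2.67 (SE 0.31) after rescaling (limma adjusted p = 0.000169) and 3.99 as deposited. The change was larger in females, at 3.38, than in males, at 1.82 (interaction 1.55, limma adjusted p = 0.0168). Withdrawal libraries had 46.4 to 51.1 TPM in males, within the range of the alcohol males as deposited. In withdrawal females it had 4.54 and 5.57 TPM, above the control females and far below the alcohol females as deposited. After rescaling the alcohol males stood at 19.3 and 29.1 TPM.

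ENSDART00000156843.1 stood at 74.8 and 71.8 TPM in alcohol females and 34.7 and 67.2 TPM in alcohol males, against 3.20, 4.06 and 1.00 TPM in control females and 1.79 and 9.07 TPM in control males. Its log2 change was 2.54 (SE 0.54) after rescaling (limma adjusted p = 0.00623) and 3.87 as deposited. The lowest alcohol library lay above the highest control library, and both of these were male. After rescaling these 2 libraries came close, at 19.8 TPM in the alcohol male and 17.7 TPM in the control male. Withdrawal libraries stood at 13.2 to 17.8 TPM in males and at 3.60 and 3.72 TPM in females. Its sexes were not called different (interaction 1.55, limma adjusted p = 0.296).

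Among the transcripts that met the rule, ENSDART00000141498.1 fell furthest after rescaling. It stood at 17.3 and 23.2 TPM in alcohol females and 181 and 331 TPM in alcohol males, against 597, 504 and 648 TPM in control females and 895 and 1048 TPM in control males. Its log2 change was −4.96 (SE 0.44) after rescaling (limma adjusted p = 2.83e-05) and −3.51 as deposited. Its log2 change was −6.03 in females and −3.67 in males (interaction −2.36, limma adjusted p = 0.00728). Withdrawal males stood at 188 to 246 TPM, and the withdrawal females at 710 and 194 TPM.

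ENSDART00000058745.4 stood at 22.7 and 22.1 TPM in alcohol females and 22.5 and 2.67 TPM in alcohol males, against 301, 144 and 240 TPM in control females and 120 and 96.7 TPM in control males. Its log2 change was −4.75 (SE 0.45) after rescaling (limma adjusted p = 4.48e-05) and −3.37 as deposited. Replicate 2 of the alcohol males lay far below the other 3 alcohol libraries, which were within 22.1 to 22.7 TPM. Withdrawal males stood at 127 to 173 TPM and withdrawal females at 3.18 and 11.3 TPM.

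**Figure D4:**
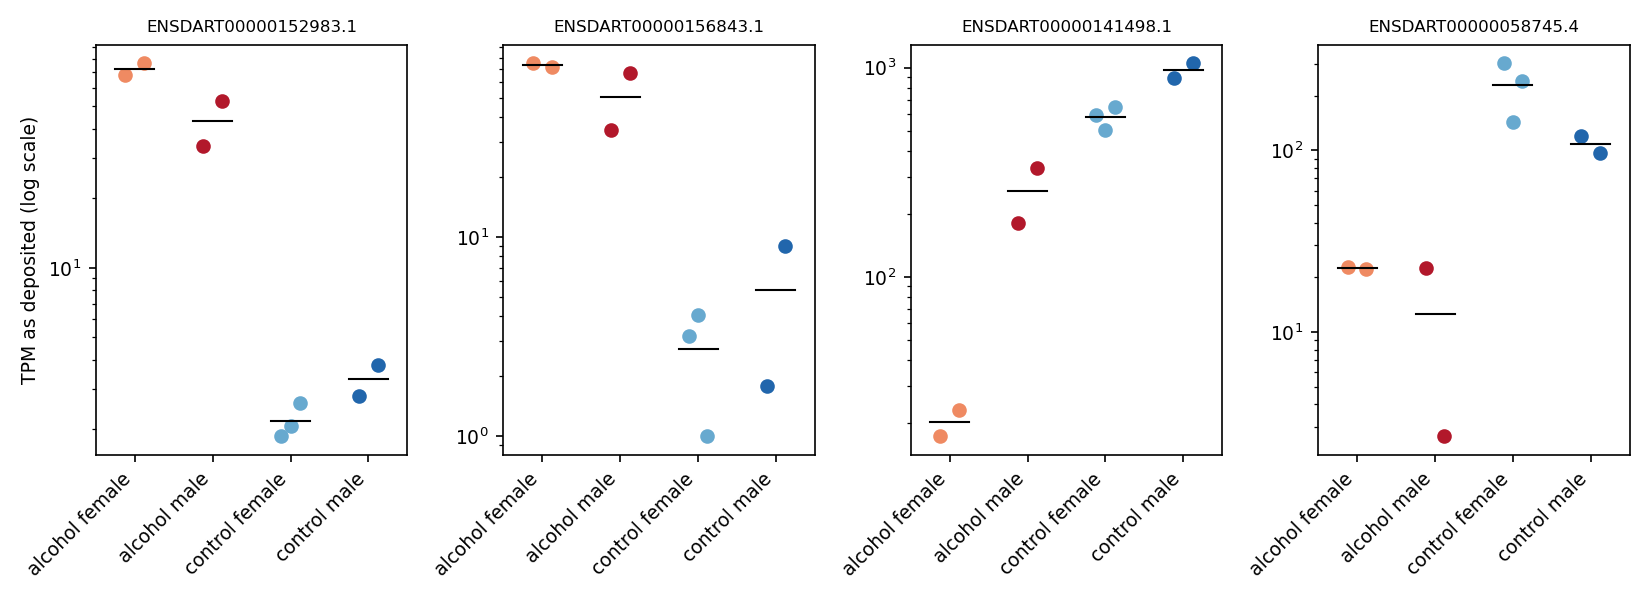
TPM as deposited, on a log scale, of the 4 transcripts named by rule in alcohol females, alcohol males, control females and control males, with 1 point for each library and a line at the group mean. The first pair is higher and the last pair lower in all 4 alcohol libraries than in all 5 control libraries.

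After rescaling, more falls than rises were called in both sexes, and in TPM as deposited and after quantile normalisation more rises were. After rescaling, 5550 transcripts rose (15.5%) and 7865 fell (22%) in females, and 7997 rose (22.3%) and 8736 fell (24.4%) in males. Of these, 5918 fell in both sexes, which is 75.2% of the female falls and 67.7% of the male falls. A total of 2025 rose in both, which is 36.5% of the female rises and 25.3% of the male rises. These shares depended on the scale. As deposited, 23173 of the 35806 tested rose in females and 23381 in males, and 2999 and 2390 fell. On that scale 19634 rose in both sexes, 84.7% of the female and 84.0% of the male rises. Most tested transcripts rose in each sex there, so a large overlap of rises is no finding. A total of 1535 fell in both, 51.2% of the female and 64.2% of the male falls. After quantile normalisation 6562 rose in females and 6947 in males, and 4681 and 5128 fell. Of these, 2473 rose in both, 37.7% of the female and 35.6% of the male rises. In both sexes 2362 fell, 50.5% of the female and 46.1% of the male falls. Of the transcripts lower under all 3 scalings, 88.8% were called in each sex alone after rescaling, and of those higher 53.5% were, in the same libraries that chose them. The female total of 13415 calls was 8879 without replicate 1 and 8017 without replicate 2 of the alcohol females.

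**Figure D5:**
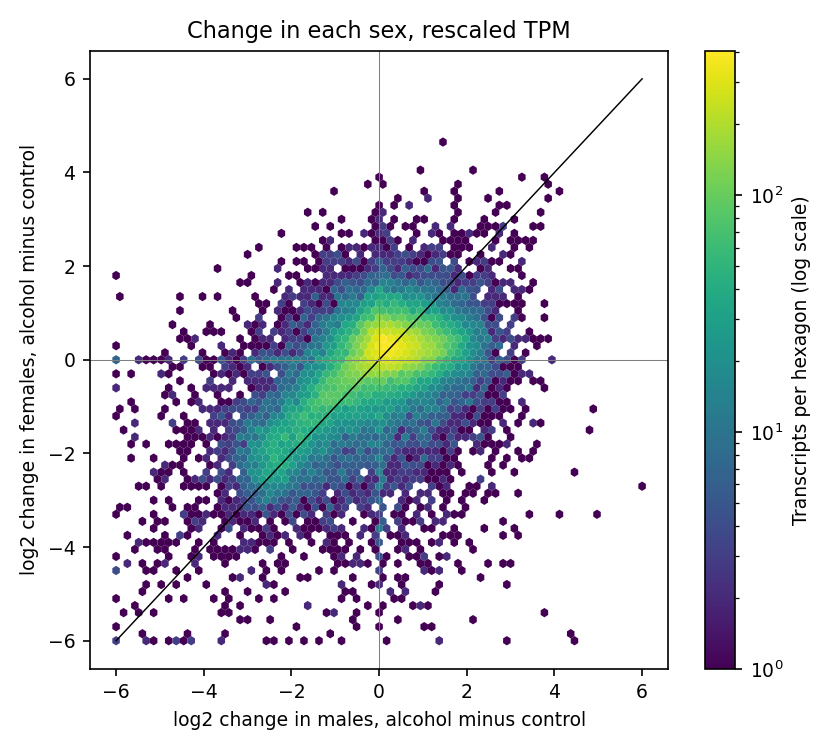
Log2 change of alcohol minus control after rescaling in females (vertical) against males (horizontal) for the 35806 tested transcripts, as hexagons coloured by the number of transcripts on a log scale, with values beyond 6 drawn at 6 and the line of equal change in black. The tail of falls in both sexes, which holds 5918 calls, follows the line, while rises spread off it.

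The test of the difference itself, the interaction of sex and exposure, called 8460 transcripts after rescaling (23.6%), with the female change above the male one in 4149 (11.6%) and below it in 4311 (12%). As deposited it called 7908 (22.1%) and after quantile normalisation 7075 (19.8%), and 4559 (12.7%) were called in the same direction under all 3. The count was 3777 and 3454 without alcohol female replicates 1 and 2, and 4657 without control male replicate 2. Among the 8460, the changes of the sexes had the same sign in 4455, and the larger change was the female one in 801 of these and the male one in 3654. As deposited these were 1298 and 4522 of 5820, and after quantile normalisation 957 and 1791 of 2748.

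In most of the transcripts with an interaction, by the fitted group means, the difference between the sexes was smaller in alcohol brains than in control brains. This held for 6809 of the 8460 after rescaling (80.5%) and for 5559 of the 7908 as deposited (70.3%). A call of the interaction favours transcripts with a large sex difference in alcohol or in control brains. The same share was not computed over all tested transcripts, or after quantile normalisation. The median absolute log2 difference between the sexes over the 8460 was 0.30 in alcohol brains and 0.89 in control brains. Over all tested transcripts it was 0.26 in alcohol brains and 0.45 in control brains, and it passed 2-fold for 7.65% of transcripts in alcohol brains and for 17.8% in control brains. These are descriptions without a test, on groups of 2 or 3 libraries. Control male replicates 1 and 2 had fewer effective transcripts than every control female library. The control libraries of the sexes thus also differed in the shape of their abundance distribution. In withdrawal brains, not part of the comparison, the order was the reverse, at 2767, 2108 and 2728 in males and 1509 and 1657 in females. Without gene names the sex labels could not be checked by markers.

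After rescaling, a small group changed in opposite directions in the sexes, with the interaction called. In 314 transcripts the level rose in females and fell in males, with median log2 changes of 0.71 in females and −0.77 in males. The median rescaled level was 14.4 TPM in alcohol females and 8.13 TPM in control females, and 11.2 TPM in alcohol males and 19.8 TPM in control males. In TPM as deposited the median turned in males, at 19.9 TPM in alcohol males and 10.9 TPM in control males. Called on TPM as deposited, 105 transcripts rose in females and fell in males and 336 fell in females and rose in males, and after quantile normalisation these were 336 and 311. In 312 of the 314, control males lay above control females in every library. In the other 317 the level fell in females and rose in males, with median log2 changes of −1.19 and 1.25. The median rescaled level was 4.60 TPM in alcohol females and 15.2 TPM in control females, and 8.73 TPM in alcohol males and 1.45 TPM in control males. In 310 of the 317, control males lay below control females in every library, while alcohol males lay below alcohol females in 24 and above them in 180. Together, the control sexes did not overlap in 622 of the 631 transcripts, a pattern that the choice of opposite changes favours. The share of all tested transcripts whose sexes did not overlap was not computed, in control or in alcohol brains. These counts are thus no result about the 631.

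The liver of the same experiment gave a comparison with no shared library, but from the same exposure groups of fish. Differences of tank or preparation between these groups could be shared by both tissues, which was not tested. The liver fit used 2 libraries for each sex and exposure and was added after the brain results were seen. Of 17477 transcripts tested in both tissues, limma called 6.59% higher and 4.17% lower in alcohol than in control livers after rescaling. Of the transcripts higher in the brain under all 3 scalings, 1771 were tested in the liver, where 268 were higher (15.1%) and 14 lower (0.791%), with a median log2 change of 0.40 against 0.02 over all 17477. Of those lower in the brain, 1098 were tested, with 24 higher (2.19%) and 72 lower (6.56%) in alcohol livers and a median of −0.30. In liver TPM as deposited the first group was higher in 27.8% and lower in 0.113%, and all 17477 were higher in 14.6% and lower in 1.19%. On that scale the second group had 88 higher (8.01%) and 27 lower (2.46%) and a median log2 change of 0.02, against 0.29 over all 17477. It was thus higher less often, and lower more often, than all 17477. After quantile normalisation of the liver, 12.0% of the first group were higher and 1.58% lower. Of the second group 2.64% were higher and 8.20% lower, against 5.63% and 6.37% of all. In either direction, 8.74% of the second group were called after rescaling, against 10.8% of all. No test was made of these shares.

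The labels give no batch for any brain library. Exposure and any step of preparation that differed between the groups cannot be told apart. The abundance distribution differed from that of the controls in all 4 alcohol libraries, and the calls compare the same groups. Its part in the calls was not tested beyond the 3 scalings.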

How the data were processed

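The authors deposited TPM per Ensembl transcript for 14 brain and 12 liver libraries. Per the labels, the TruSeq kit was non-stranded. Per the submitters' processing notes, the reads went through FastQC 0.11.7, were mapped to danRer10 by STAR 2.5.2, and RSEM 1.3.1 estimated the abundances. TPM keeps no read number, so depth and counting error are unknown, and no interval or floor that needs them is given. A value of exactly 0 can be a failed split of reads between similar transcripts. In 131 tested transcripts all 9 values equalled those of another transcript. Identifiers were not linked to genes here, so the gene and marker lists set in the design could not be applied, and no sequence is printed.

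Computations used R 4.3.3 with limma 3.58.1 and Python 3.11.15. TPM was divided by a median-of-ratios factor over 28277 transcripts above 0 in all 9 libraries and taken as log2(TPM + 1), so fold changes of low transcripts are understated. A limma model with sex and exposure and a variance trend was fitted, with Benjamini-Hochberg adjustment over all tested transcripts and calls at an adjusted p below 0.05. Males, females and the interaction came from a fit of 4 group means. The same fits were made on TPM as deposited and after quantile normalisation. Measures of single libraries were tested by permuting exposure within sex. Only the limma fit with sex and exposure was tried on simulated log values, in which few transcripts changed. The scalings, the interaction and a shift of the whole distribution were not part of that trial. Named transcripts follow the rule given with them. The liver list asked for 500 TPM in every control liver and a median of at most 1 TPM in withdrawal brains, which no transcript met, and the list used (a median of at most a hundredth of the lowest control liver) was chosen after that. The members, classes and tests were chosen with earlier results of these data known.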

Additional observations from a re-analysis of the deposited data

Results flagged for a closer look

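Of 27 groups of 4 or 5 values examined for a sample far from the others, 1 stood out, where chance gives about 1 in 20. For ENSDART00000058745.4 the gap between replicate 2 of the alcohol males, at 2.67 TPM, and the next alcohol library made up 0.973 of the range of the 4 alcohol libraries.

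After rescaling, the interaction test called the difference between alcohol and control libraries unlike in females and males for 8460 transcripts (23.6% of those tested). Under all 3 scalings 4559 (12.7%) were called in the same direction. Among the 8460 were 2 of the named transcripts. For ENSDART00000152983.1 the female minus male difference in log2 change was 1.55. For ENSDART00000141498.1 it was −2.36.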

How the results depend on the processing

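Depth is unknown and limits every value near 1 TPM. Without rescaling, calls were 24882 higher and 2630 lower, with 26172 in females and 25771 in males, and quantile normalisation gave 4334 lower. A mean for each group of sex and exposure gave 9605 higher, and 6200 higher under 3 scalings, including 3537 of the 3538. By class from under 1 TPM to above 1000 TPM, the median log2 changes of 0.18, 0.31, 0.30, −0.69, −2.31, −2.29 and −1.996 became 0.66, 1.18, 1.60, 0.74, −0.85, −0.82 and −0.51 without rescaling, and −0.0237, 0.0802, 0.21, 0.13, −0.0362, −0.00772 and 0.0240 with quantile normalisation. With pseudocounts 0.1 and 5 the classes under 1, 1 to 5 and 5 to 20 TPM moved to 0.49, 0.51 and 0.34, and to 0.0525, 0.12 and 0.20. The cause was not tested.

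The deviations of same-numbered alcohol and control libraries from their group means had r = −0.0714 in males, and 0.00531 and −0.000109 in females. In groups of 2 libraries the deviations mirror each other, so these few values cannot show whether the numbers pair the libraries. With the replicate block, calls were 2028 higher and 6299 lower, 8690 in females, 14038 in males, 1374 for the interaction, and 902 higher and 901 lower under 3 scalings. The 4 named transcripts kept their direction and call in all 19 alternatives, which the rule that chose them fixed for the scalings and favoured for the others.

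Leaving out 1 library at a time, calls ranged from 3996 to 5220 higher, 7138 to 7888 lower, 8017 to 13563 in females, 13363 to 16611 in males, 3454 to 7829 for the interaction, and 2211 to 3278 higher and 1207 to 1820 lower under 3 scalings. A left-out alcohol or control library can leave 1 library in a group, which is then assumed to vary like the others. The differences ranged from −6.95 to −4.39 and −12.6 to −9.55 percentage points for the 10 and 100 most abundant transcripts, −24.7 to −21.0 for the 1000, 3245 to 4329 effective transcripts, 7607 to 8107 transcripts at 1 TPM or more, and −422 to 176 listed at 0, where the sign turned without control male replicate 2 (176). The adjusted exact permutation p ranged from 0.04 to 0.12 for the 10, 0.04 to 0.1 for the 100, and 0.04 to 0.0833 for the 1000 most abundant, effective transcripts and transcripts at 1 TPM or more. The smallest unadjusted p that 8 libraries allow is 0.0333 without a male library, 0.0417 without an alcohol female and 0.0556 without a control female, where no test could pass.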
